A study of Mus musculus with 70 samples.

Results

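The glutamate and GABA receptor subunit genes are the 47 of 23078 genes in the table whose symbols name a subunit of an ionotropic or metabotropic receptor for either transmitter. The rule took them by symbol alone and used no measured value, but it was chosen with earlier results of these data known. The set holds 4 AMPA subunits (Gria1 to Gria4), 5 kainate subunits (Grik1 to Grik5), 7 NMDA subunits (Grin1, Grin2a to Grin2d, Grin3a and Grin3b), 2 delta subunits, 8 metabotropic glutamate receptors, 19 GABA-A subunits and 2 GABA-B subunits (Gabbr1 and Gabbr2). Their RNA was followed in sorted cells of the mouse dorsal cortex from embryonic day 10.5 (E10.5) to postnatal day 1 (PN). All animals were wild type on a C57Bl/6 background and carried a green fluorescent reporter. Neural stem cells (NSC) were sorted from Hes5::GFP animals, as 33 libraries over 10 stages from E10.5 to PN. Basal progenitors (BP) and newborn neurons (NBN) were both sorted from Tbr2::GFP animals, as 23 libraries over 8 stages from E12.5 and 14 libraries over 5 stages from E15.5, each up to PN. The sources used here do not say how those 2 populations of the Tbr2::GFP line were told apart. Each of the 23 groups of cell type and stage held 2 to 4 libraries. The labels do not say whether these came from separate animals, so p-values measure the spread between these samples, which may be technical.

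Receptors for these transmitters are either ion channels or receptors coupled to G proteins. AMPA and kainate channels carry fast excitatory current, and NMDA channels need the product of Grin1 together with a GluN2 or GluN3 partner. GABA-A channels are pentamers, usually of alpha, beta and gamma subunits, and the GABA-B receptor is an obligate pair of the Gabbr1 and Gabbr2 products. Metabotropic glutamate receptors act through second messengers: Grm5 couples to calcium release, and Grm2 and Grm3 lower cyclic AMP. In the embryonic cortex many of these receptors appear before synapses do, and chloride is then high inside immature cells, so that GABA tends to depolarise them.

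The reporters were checked against their own genes. Hes5, a Notch target of stem cells, was between 47.4 and 536 TPM (transcript abundance scaled to transcript length and to a fixed library total) in NSC libraries, at most 8.21 in BP and at most 7.42 in NBN. Eomes, which encodes Tbr2, was between 248 and 715 TPM in BP, between 6.15 and 47.5 in NBN and between 20.9 and 737 in NSC. The summed TPM of 8 neuron markers was between 5306 and 8412 in NBN libraries, between 3443 and 6847 in BP and between 414 and 5325 in NSC, where the group means peaked at E15.5 (4788) and E16.5 (4160). The summed TPM of 8 ventral and interneuron markers was between 68.6 and 1180 in NSC, at most 78.4 in BP and at most 93.3 in NBN. Per the labels, the third NSC replicate of PN is titled NSC but carries the basal progenitor cell type; it was kept as NSC by its title. Leaving it out moved 1 count of called receptor genes, that of subunits higher in NBN than in NSC, from 12 to 14.

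TPM are corrected for transcript length, so levels of different subunits can be set side by side. By highest group mean, 21 subunits reached at least 20 TPM, 9 lay between 5 and 20, 11 lay between 1 and 5, and 6 stayed under 1. The 6 were Gabra6, Gabrp, Gabrr1, Gabrr2, Gabrr3 and Grm6, which were not tested. Of the other 41, 22 had their highest group mean in NBN (13 of them at E17.5), 14 in NSC (9 of them at PN) and 5 in BP (among them Gria3, Grik2 and Grm8). Gabbr1, whose product binds GABA in the GABA-B receptor, was 261, 291 and 314 TPM (lowest, median and highest of 14 libraries) in NBN, 125.2, 193 and 240 TPM in BP, and 17.7, 131 and 253 TPM in NSC. Every NBN library was above every BP and NSC library for this gene. Grik5, a kainate subunit that needs a partner to form a channel, made up between 56.4% and 82.6% of kainate subunit RNA in every group, the largest share in each. The map of group means shows the high NBN columns and a separate set of genes that were high in NSC at PN.

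**Figure D1:**
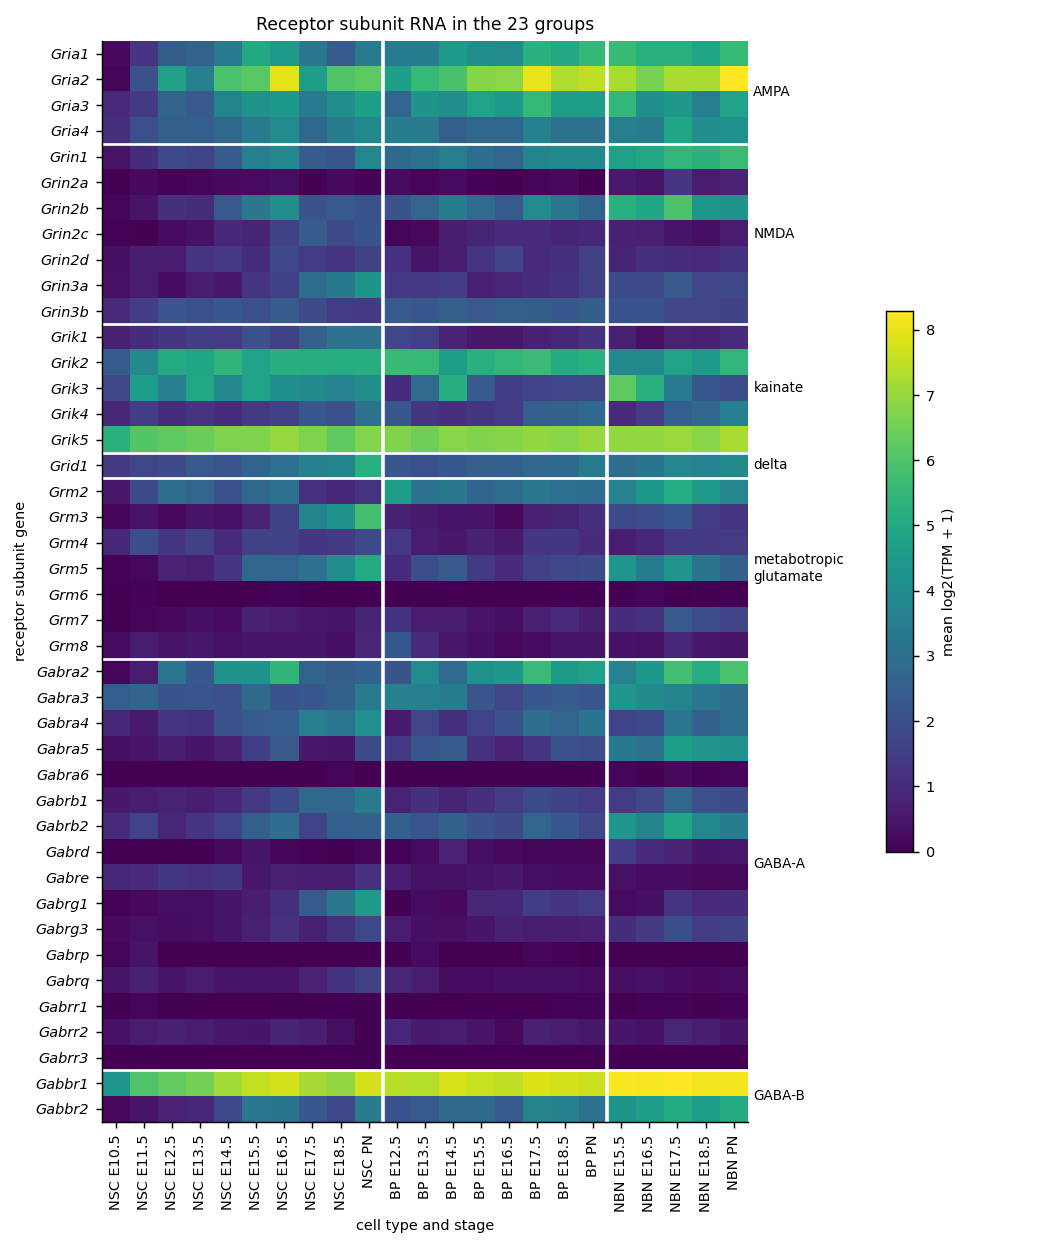
Mean log2(TPM + 1) of 42 receptor subunit genes (rows, by family) in the 23 groups of cell type and stage (columns), with colour showing the mean. Gabbr1, Gabbr2, Grin1 and Gabra5 are at their highest in NBN columns, while Grm3, Grm5, Gabrg1, Grin3a and Grid1 are at their highest in the PN column of NSC.

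The first comparison asked how receptor RNA differed between newborn neurons and basal progenitors of the same reporter line at the 5 shared stages. A gene was called when its mean log2(TPM + 1) differed by at least 1 with an adjusted p below 0.05 in limma's moderated test, with Benjamini-Hochberg adjustment over 15508 genes. Fold changes on this scale understate the change of genes near or below 1 TPM. Of the 41 subunits tested, 13 were higher in NBN, beside 4.36% of all genes tested. None was lower, beside 5.06% of all genes, and 7 were lower by unadjusted p below 0.05 with differences short of the size limit. The median difference over the 41 was 0.68, against -0.07 over all genes. In sorted pools, fewer cells of a type and less RNA per cell cannot be told apart, here and in the comparisons that follow. Called subunits came from the GABA-A (4 of 14 tested), GABA-B (1 of 2), NMDA (2 of 7), kainate (1 of 5) and metabotropic (5 of 7) families, and none from the 4 AMPA subunits. At these stages the neuron marker sum was between 5306 and 8412 TPM in NBN libraries and between 3443 and 4705 TPM in BP libraries. The 8 markers did not move as 1: Mapt, Stmn2, Nefl and Syt1 were called higher and none was called lower. Tubb3 (0.70) and Rbfox3 (-0.96, 79.4 against 155.5 TPM) missed the size limit in opposite directions. Dcx (-0.15) and Map2 (0.04) differed little. Of 6 microglia markers, 3 were higher in NBN, with summed levels of 4.36 to 62.8 TPM in NBN and 3.17 to 16.6 TPM in BP libraries. The part of either in these differences was not tested.

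Among GABA receptors, Gabra5, the alpha subunit of many extrasynaptic receptors, differed most. It was 7.24, 13.0 and 26.9 TPM (lowest, median, highest) in the 14 NBN libraries and 0.679, 2.50 and 4.53 TPM in the 23 BP libraries. No BP library of any stage reached the lowest NBN library. The log2 difference at shared stages was 2.48 ± 0.09 (SE, adjusted p = 9.78e-30). Gabrb2, a beta subunit of mature synaptic receptors, was 10.04 to 33.1 TPM in NBN and 1.71 to 7.09 TPM in BP, again without overlap, with a difference of 1.90 ± 0.14 (adjusted p = 4.91e-18). Gabra3, an alpha subunit abundant in the immature cortex, was 6.66 to 20.3 TPM in NBN and 1.98 to 5.10 TPM in BP at the stages compared, a difference of 1.48 ± 0.10 (adjusted p = 7.12e-20). Earlier BP did overlap NBN for Gabra3, with 15.2, 10.6 and 9.16 TPM at E12.5.

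Gabbr2, which couples the GABA-B receptor to G proteins, was 17.4, 24.8 and 36.0 TPM in NBN and 2.73, 6.38 and 14.1 TPM in BP, a difference of 1.61 ± 0.11 (adjusted p = 2.01e-19). The libraries of the 2 cell types did not overlap. Its partner Gabbr1 was above BP in every NBN library, but the difference of 0.52 ± 0.07 was below the size limit.

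For NMDA receptors, the obligatory Grin1 was 23.8, 34.4 and 51.5 TPM in NBN and 4.67, 8.33 and 15.6 TPM in BP, a difference of 1.77 ± 0.08 (adjusted p = 7.09e-26). Grin2b, the GluN2 partner of early life, was 16.7, 29.6 and 68.9 TPM in NBN against 2.16, 6.65 and 16.6 TPM in BP, a difference of 1.94 ± 0.15 (adjusted p = 7.41e-17). For both genes every NBN library was above every BP library. Grin2a, the partner that gains ground after birth, did not exceed 1.82 TPM in any of the 70 libraries. Part of the Grin1 signal is uncertain, because 1307 of its 9700 exon bases overlap the antisense gene Grin1os and the library kit does not mark strand.

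Metabotropic receptors were called in 5 of 7 cases. Grm5 was 19.6, 18.7, 16.3 and 21.6 TPM in the NBN libraries of E15.5 and 1.51, 1.18, 2.14 and 1.94 TPM in the BP libraries of that stage. By PN it was 4.77 and 4.78 TPM in NBN against 3.01 and 2.40 TPM in BP. The groups stayed apart at each shared stage, and the difference over stages was 2.04 ± 0.12 (adjusted p = 6.19e-21). Grm2, a presynaptic autoreceptor of mature neurons, differed by 1.35 ± 0.09 (adjusted p = 2.98e-19). Smaller differences were called for Grm3 (1.104 ± 0.087) and Grm7 (1.02 ± 0.08), a presynaptic receptor of low glutamate affinity. The Grm7 call, on a gene of at most 4.16 TPM, was lost without BP E16.5 replicate 3 (0.988), NBN E15.5 replicate 4 (0.994), NBN E16.5 replicate 1 (0.976) or NBN E18.5 replicate 1 (0.982).

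The kainate subunits went different ways. Grik3, a channel-forming subunit, was 71.8, 69.8, 73.2 and 81.1 TPM in NBN at E15.5 and 25.1, 42.9 and 49.7 TPM at E16.5. It was 7.04 and 13.0 TPM at E17.5, 3.99, 3.03 and 4.40 TPM at E18.5, and 3.16 and 2.76 TPM at PN. BP libraries of the same 5 stages were between 1.51 and 4.94 TPM. NBN were above BP at each stage, by a wide margin at E15.5 and a narrow one at PN, with a difference of 2.01 ± 0.22 (adjusted p = 1.15e-11). Grik2, another channel-forming subunit, ran the other way at the early stages. At E16.5 it was 15.4, 12.7 and 14.4 TPM in NBN and 40.01, 46.5 and 43.4 TPM in BP, and at PN it was 45.5 and 41.0 TPM in NBN and 36.0 and 39.0 TPM in BP. NBN libraries were thus below BP at E15.5 to E18.5 and above at PN, and the difference over the 5 stages, -0.84 ± 0.08, was not called. AMPA subunits were not called: Gria1 differed by 0.52 ± 0.14, Gria2 by 0.04 ± 0.16, Gria3 by -0.34 ± 0.12 and Gria4 by 0.94 ± 0.11.

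A count that does not use the size limit was made as well. At all 5 shared stages, 21 of the 41 subunits had every NBN library above every BP library, beside 11.8% of all genes. None had every NBN library below, beside 18.6% of all genes. Genes that work with the receptors were read from lists on receptor biology. Of 14 auxiliary subunits of AMPA, kainate and NMDA receptors, 5 were higher in NBN and 1 was lower. Cacng4, which escorts AMPA receptors to the membrane, rose by 1.55 ± 0.07 on the log2 scale, from a mean of 44.4 to 131 TPM, and Cnih2, an AMPA receptor export factor, rose by 1.15 ± 0.07, from 187 to 408 TPM. Cacng5, a related gene, fell by 1.61 ± 0.11, from 16.4 to 4.80 TPM. Of 18 postsynaptic scaffold genes, 3 were higher (Grip2 by 2.21 ± 0.14, Dlg2 by 1.84 ± 0.13, Shank1 by 1.61 ± 0.15) and none lower (3 by unadjusted p), at a median of 0.55. Of 10 partners of GABA receptors such as gephyrin and its neighbours at the synapse, none was called, at a median of 0.17 (6 higher and 2 lower by unadjusted p below 0.05). Nor was any of 3 RNA editing enzymes (2 higher by unadjusted p). Glra2, the embryonic alpha subunit of the glycine receptor, another chloride channel, rose by 2.14 ± 0.13. Of 6 genes of glutamate uptake and synthesis 1 was higher and 1 lower, of 8 genes of GABA synthesis, transport and breakdown 1 was higher and 2 lower, and of 5 chloride cotransporters 1 was lower (Slc12a7, by -1.07 ± 0.06).

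**Figure D2:**
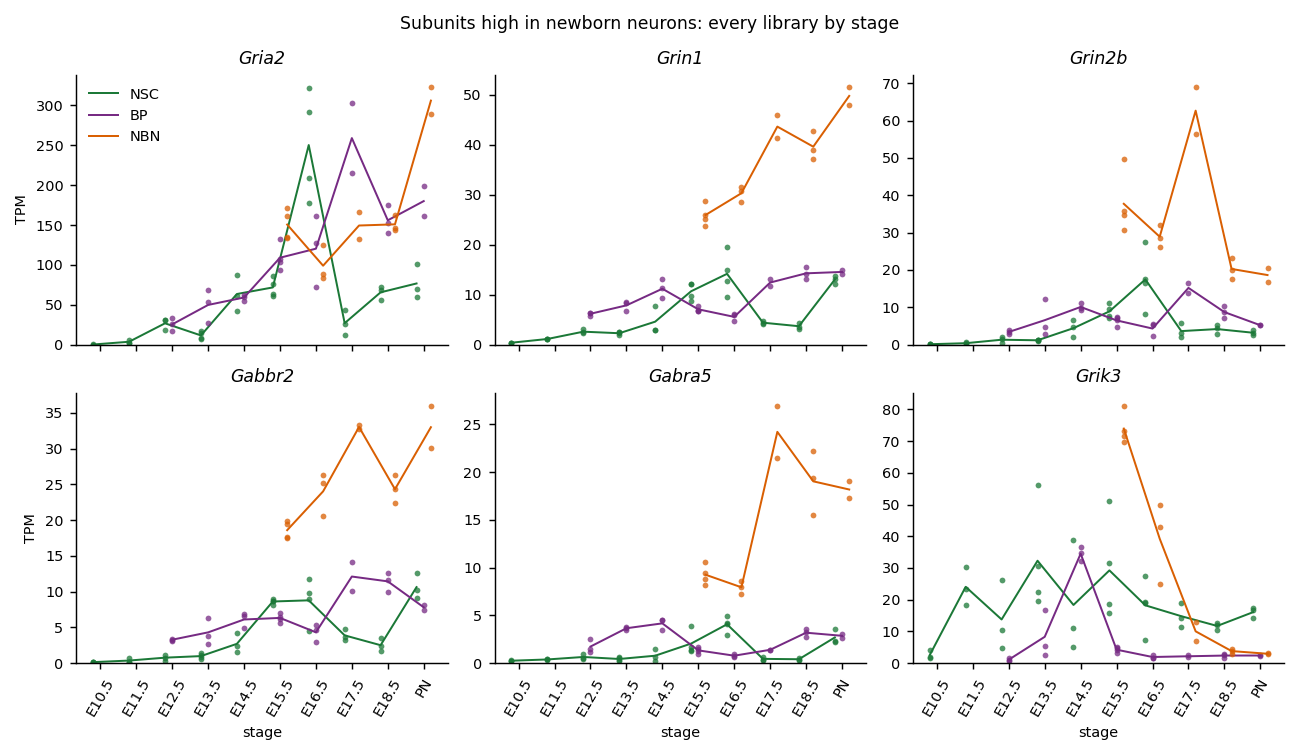
TPM of every library (dots) by stage for Gria2, Grin1, Grin2b, Gabbr2, Gabra5 and Grik3, coloured by cell type, with lines through group means. NBN dots of Grin1, Grin2b, Gabbr2 and Gabra5 lie above the BP dots at every shared stage, and NBN Grik3 goes from 69.8 to 81.1 TPM at E15.5 to 2.76 and 3.16 TPM at PN.

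Against stem cells at the same 5 stages, 12 of 41 subunits were higher in NBN, beside 6.51% of all genes tested, and 5 were lower, beside 12.6% of all genes. The NBN libraries are those of the preceding comparison. The median was 0.33, against -0.125 over all genes. Quantile normalization moved the all-gene median from -0.125 to 0.0339 and the share of higher genes among all calls from 34.1% to 49.2%. It left 3 members lower, beside 1503 of 15508 genes. Higher genes included Gabra5 (2.60 ± 0.09, adjusted p = 1.06e-32), Grm2 (2.47 ± 0.09, adjusted p = 2.4e-32), Grin2b (2.19 ± 0.14, adjusted p = 2.6e-20) and Grin1 (2.07 ± 0.08, adjusted p = 9.85e-31). Gabbr2, Gabrb2, Gria1, Gabra2 and Gria2 were higher as well, with differences between 1.11 and 1.94. At each of the 5 stages, 8 of the 41 had every NBN library above every NSC library, beside 8.29% of all genes, among them Gabrb2, Grm2, Gabbr1, Grin1, Gabrd, Gabbr2 and Gabra5.

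Gria2, the AMPA subunit that makes the channel almost impermeable to calcium, was not among those 8. NSC libraries of E16.5 held 210, 292, 322 and 178 TPM of it, above the 125.04, 88.8 and 83.1 TPM of NBN at that stage. NBN were above NSC at the other 4 stages. The mean neuron marker sum of NSC at E16.5 was 4160 TPM, against 1902 TPM at E17.5, where NSC Gria2 was 43.1, 11.99 and 25.5 TPM; its part in these values was not tested.

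The genes lower in NBN than in NSC included Grik1 (-1.78 ± 0.08), Gabrg1 (-1.60 ± 0.06), Grm3 (-1.46 ± 0.08) and Grin2c (-1.19 ± 0.08), each at an adjusted p below that of Gria2 (1.47e-09). Under quantile normalization the Grin2c call was lost (-0.90). Gabrg1, a gamma subunit typical of glia, and Grik1, a kainate subunit, were below NSC in every NBN library at each shared stage, beside 15.2% of all genes. With only E15.5 and E16.5, Grik1 was still called (-1.30), while Gabrg1 (-0.59) and Grin2c (-0.49) kept their direction below the size limit and Grm3 was higher in NBN by 0.77. Of the subunits called higher over all 5 stages, Gabra2 (-0.79) and Gria2 (-0.12) changed sign there. Of 8 genes of GABA synthesis, transport and breakdown, 1 was higher in NBN and 6 were lower. Gad1, a GABA-producing enzyme, was 3.21 TPM in NBN and 38.3 TPM in NSC on average, and Slc32a1, the vesicular GABA transporter, was 1.29 against 15.7 TPM. These are interneuron markers as well, and the ventral and interneuron marker sum was higher in NSC, as given above; its part in the result was not tested. Over the NBN and NSC libraries compared, all 6 astroglia and all 6 oligodendrocyte precursor markers were lower in NBN, and all 5 Cajal-Retzius and 3 of 6 microglia markers were higher. Their part in the differences was not tested either.

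**Figure D3:**
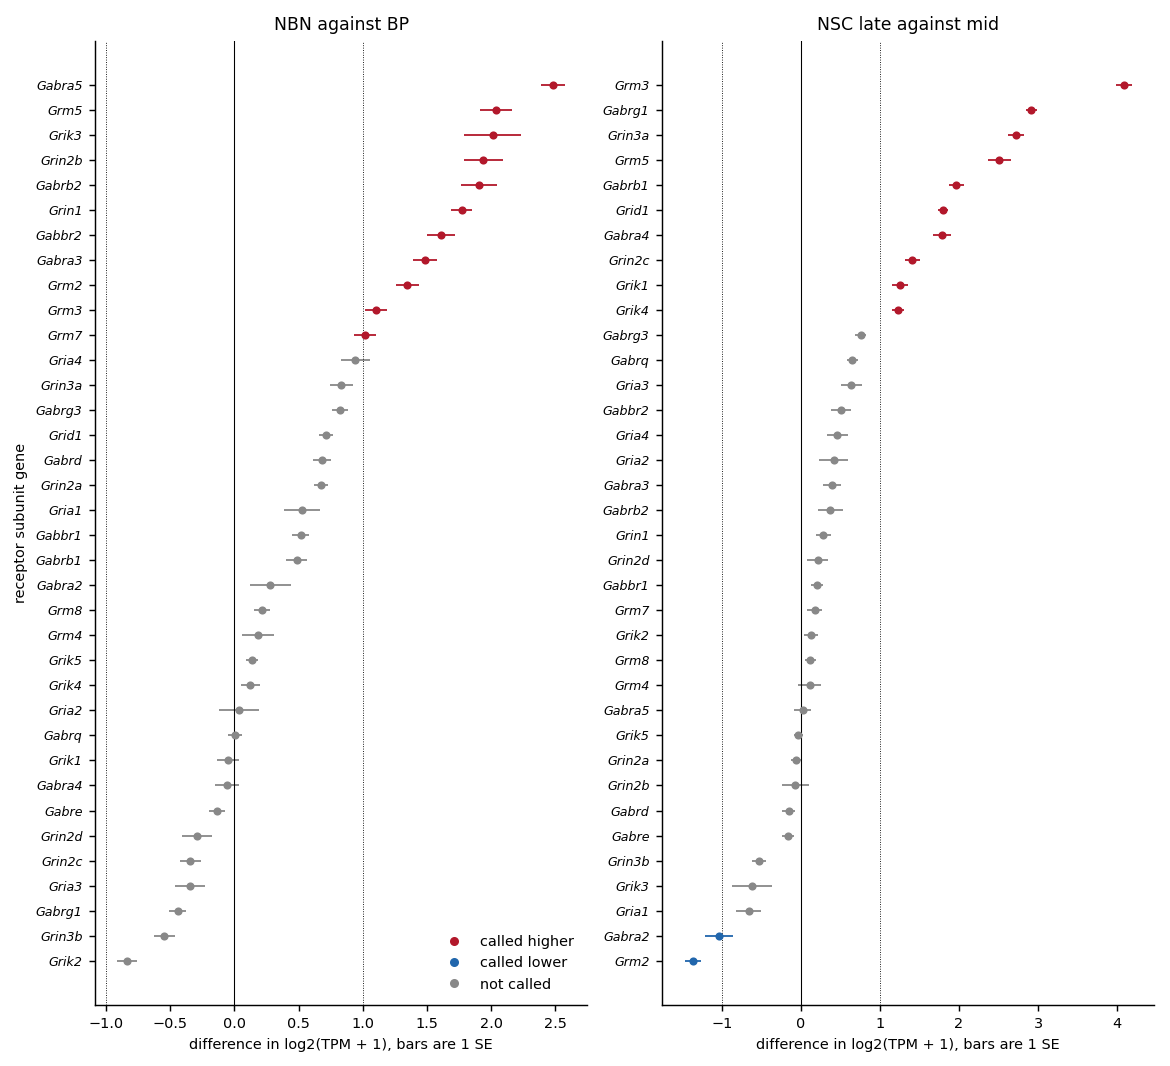
Log2(TPM + 1) difference ± 1 SE of 36 tested subunits in NBN against BP (left) and in late against mid-stage NSC (right), with called higher genes in red, called lower genes in blue and others in grey. The left panel has 11 red and no blue points, and the right panel has 10 red and 2 blue points, led by Grm3 at 4.09.

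Basal progenitors were compared with stem cells at the 8 shared stages, E12.5 to PN. Of 41 subunits, 3 were higher in BP, beside 1.87% of all genes tested, and 3 were lower, beside 6.22% of all genes. The median was 0.185, against -0.0178 over all genes. Grm2 was higher by 1.14 ± 0.07 (adjusted p = 5.71e-22) and the AMPA subunit Gria1 by 1.03 ± 0.10 (adjusted p = 3.97e-13). Grik3 fell by 1.85 ± 0.16 (adjusted p = 4.82e-15), Grm3 by 1.51 ± 0.06 (adjusted p = 5.59e-28) and Grik1 by 1.11 ± 0.06 (adjusted p = 3.81e-22). Under quantile normalization the Grik1 call was lost (-0.88). The Gria1 call was lost without any 1 of 5 libraries, at 0.978 to 0.999 (NSC E12.5 replicate 3, NSC E14.5 replicate 1, NSC E16.5 replicate 4, NSC E18.5 replicate 3 or BP E13.5 replicate 2).

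These counts rested on the stages used. Grm2 was 23.2, 23.3 and 26.4 TPM in BP and 7.40, 7.56 and 5.08 TPM in NSC at E12.5. At E15.5 it was 5.66, 5.64, 5.88 and 4.37 TPM in BP and 6.89, 4.55, 5.35 and 6.46 TPM in NSC, and at PN it was 8.06 and 5.65 TPM in BP against 1.57, 1.17 and 1.58 TPM in NSC. The 2 cell types overlapped at E15.5 and E16.5 and stood apart at the other 6 stages. From E12.5 to E16.5 alone the Grm2 difference was 0.65 (adjusted p = 5.4e-10 in limma), short of the size limit. No subunit was called higher in BP over those stages, beside 66 of the 15508 genes tested. From E17.5 to PN the Grm2 difference was 1.96. There 8 subunits were called higher, beside 911 of all genes, and 10 lower, beside 1954 of all genes. Without E15.5 and E16.5, a choice made after seeing the data, 10 subunits were called higher, beside 611 of all genes. Those are the 2 stages at which the neuron marker sum of NSC (4788 and 4160 TPM) reached that of BP (libraries of E15.5 to PN between 3443 and 4705 TPM); its part was not tested. Gria1 gave 0.30 at E12.5 to E16.5 and 2.24 at E17.5 to PN, and Grm3 gave -0.20 and -3.70. Grik3 gave -1.65 and -2.18 in those windows, with BP below NSC at every stage but E14.5, where BP held 34.6, 32.3 and 36.7 TPM and NSC held 5.17, 11.2 and 38.7 TPM. In BP, the 3 libraries of E14.5 stood above all those of later stages for Grik3.

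Of 6 basal progenitor markers, 2 were called higher in BP and none lower (4 higher and 1 lower by unadjusted p). Their sums overlapped, at 668 to 1649 TPM in BP and 374 to 1536 TPM in NSC libraries. Of 8 neuron markers, 3 were higher in BP and none lower, with sums of 3443 to 6847 and 1085 to 5325 TPM. All 9 neural stem cell markers were lower in BP (529 to 969 and 1597 to 12030 TPM). Markers of other cells differed in the same comparison. All 5 markers of Cajal-Retzius cells, early-born neurons of the marginal zone, were higher in BP, with summed levels of 101.1 to 452 TPM in BP and 7.22 to 150.3 TPM in NSC libraries. All 6 oligodendrocyte precursor, 5 of 6 astroglia and all 8 ventral and interneuron markers were lower in BP. Their sums were 0.98 to 19.9, 14.1 to 209 and 16.48 to 78.4 TPM in BP libraries and 3.198 to 1730, 101.8 to 3714 and 102.5 to 1180 TPM in NSC libraries. The part of these markers in the 6 calls was not tested.

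Within stem cells, the step from the earliest stages (E10.5 and E11.5) to mid neurogenesis (E13.5 to E15.5) held the largest number of called receptor genes. Of 41 subunits, 16 rose, beside 13.7% of all genes tested, and none fell, beside 5.26% of all genes; by unadjusted p below 0.05, 32 were higher and 0 lower. The median was 0.73, against 0.14 over all genes. Median ratio scaling moved the all-gene median to -0.0453 and the share of higher genes among all calls from 72.3% to 52.7%. No called member changed direction under either other scaling, but Gabra4 lost its call under both. All 4 AMPA subunits, both GABA-B subunits and 4 of 14 GABA-A subunits were among the 16, with 2 each of the kainate, metabotropic and NMDA subunits. Gria2 rose by 4.13 ± 0.20 (adjusted p = 5.07e-25). It was 0.0461, 0.0956 and 0.120 TPM at E10.5, 2.25, 6.21 and 2.16 TPM at E11.5, 31.1, 30.7 and 18.3 TPM at E12.5, and 41.5, 61.1 and 87.7 TPM at E14.5. No mid-stage library was as low as any library of E10.5 or E11.5. The path was not a steady climb for the family. The mean AMPA sum in NSC was 41.7 TPM at E12.5, 25.9 TPM at E13.5 and 93.8 TPM at E14.5. The GABA-A sum was 44.8, 35.7 and 64.2 TPM at these stages. Of AMPA subunit RNA, Gria2 made up 3.42% ± 0.95 (SD, n = 3) at E10.5, 34.2% ± 9.2 at E11.5 and 81.0% ± 1.4 (n = 4) at E16.5. Gria4 was the largest part at E10.5, with 49.7%.

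The promoter of Gria2 carried a letter match that no other member had. RE1 is the site bound by REST, a repressor of neuronal genes in non-neuronal cells. The 21-base RE1 consensus was searched on both strands of 32851 RefSeq promoter windows of GRCm38.p6, each from 250 bases before to 50 after a gene start, with up to 3 mismatches. It was found in 24 windows (0.0731%). Of the 32 members with a window, only Gria2 had it, with 2 mismatches. The match lies on the strand opposite to the gene. The window is chr3:80802786-80803085 on the minus strand of GRCm38.p6, and the gene spans chr3:80681450-80802835 in the annotation used. The sequence is shown because Gria2 had the largest rise; capitals mark the match.
Gria2: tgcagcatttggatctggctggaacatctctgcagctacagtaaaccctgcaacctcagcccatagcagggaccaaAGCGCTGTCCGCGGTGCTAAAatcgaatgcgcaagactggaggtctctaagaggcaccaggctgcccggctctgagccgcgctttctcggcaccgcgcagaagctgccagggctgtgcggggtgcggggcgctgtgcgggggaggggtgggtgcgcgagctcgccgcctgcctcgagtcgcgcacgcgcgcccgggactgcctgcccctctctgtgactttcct
A match is a description of letters and not evidence of binding in these cells. The 15-base palindromic motif of NFI factors, which take part in the switch to gliogenesis, searched in the same way with up to 1 mismatch, was found in 0.907% of windows and, among members, only in that of Gabrr2.

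Of 14 GABA-A subunits, 4 rose over the same interval in NSC, at a family median of 0.376. Gabra2, an alpha subunit of early postnatal synapses, rose by 3.18 ± 0.20 (adjusted p = 3.38e-20), from 0.0244, 0.106 and 0.193 TPM at E10.5 to between 12.7 and 26.6 TPM in the 4 libraries of E15.5. Every library of the mid stages was above every library of E10.5 for this gene. Gabra4 rose by 1.11 ± 0.12. Its call was lost under quantile normalization (0.97), under median ratio scaling (0.98) and without E15.5 in the mid stages (0.86). Gabbr1 rose by 1.89 ± 0.09 (adjusted p = 4.31e-26), from 17.7, 19.0 and 22.1 TPM at E10.5 to 108, 141 and 178 TPM at E14.5. Grin1 rose by 1.77 ± 0.11, Grin2b by 1.95 ± 0.20 and Grik2 by 1.89 ± 0.10. Of the partner genes, rises were called for 9 of 14 auxiliary subunits (Gsg1l by 2.55 ± 0.14, Cnih3 by 2.07 ± 0.11), 9 of 18 scaffold genes (Dlg2 by 2.39 ± 0.17, Dlgap1 by 2.30 ± 0.14) and 3 of 10 GABA receptor partners, with none called lower. The neuron marker sum of these libraries went from 460 TPM at E10.5 and 2457 TPM at E11.5 to between 2516 and 4788 TPM (group means) at E13.5 to E15.5. Red blood cell markers summed to 5416 TPM at E10.5 and 3111 TPM at E11.5. The part of either in these rises was not tested.

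From mid to late stages (E17.5 to PN), more subunits rose than fell in stem cell libraries, as was so for all genes tested (1444 higher and 380 lower). Of 41, 11 rose, beside 9.31% of all genes tested, and 3 fell, beside 2.45% of all genes. The median was 0.36, against 0.12 over all genes. Quantile normalization moved the all-gene median to -0.0634 and the share of higher genes among all calls from 79.2% to 58%. Grm3, the metabotropic receptor best known from astrocytes, rose most, by 4.09 ± 0.10 (adjusted p = 2.29e-38). It was 0.295, 0.283 and 0.317 TPM at E14.5, 3.44, 1.21, 2.46 and 1.42 TPM at E16.5, 11.1, 11.2 and 15.7 TPM at E17.5, 21.1, 17.8 and 15.9 TPM at E18.5, and 66.3, 50.7 and 54.6 TPM at PN. The stages from E16.5 on followed one another without overlap. BP libraries stayed between 0.0612 and 1.34 TPM and NBN libraries between 1.29 and 4.39 TPM.

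Gabrg1 rose by 2.92 ± 0.08 (adjusted p = 3.24e-37), from 0.497, 0.420 and 0.235 TPM at E14.5 to 3.61, 3.84 and 5.11 TPM at E17.5 and 25.5, 21.2 and 19.4 TPM at PN. No BP library exceeded 2.03 TPM. Grin3a, an NMDA subunit that lowers calcium entry, rose by 2.72 ± 0.10 (adjusted p = 1.03e-29), with 0.229, 0.403 and 0.785 TPM at E14.5 and 24.4, 14.3 and 18.7 TPM at PN. Grm5 rose by 2.51 ± 0.14 (adjusted p = 3.64e-22), with 0.602, 1.11 and 3.14 TPM at E14.5 and 44.0, 26.5 and 29.2 TPM at PN. For both, every PN library was above every library of E14.5 by more than their spread. Of the mid stages, E14.5 had the lowest metabotropic sum in NSC, a mean of 7.66 TPM against 10.6 TPM at E13.5 and 17.9 TPM at E15.5. At E15.5 and E16.5, every NSC library was already above every BP library for Grm5 and for Grin3a. Grid1, a delta subunit, rose by 1.80 ± 0.06 (adjusted p = 2.51e-31), from 4.03, 3.27 and 3.81 TPM at E14.5 to 42.3, 37.5 and 32.97 TPM at PN. Delta receptors bind bridging proteins at synapses and not glutamate. Gabra4 (1.78 ± 0.11), Gabrb1 (1.96 ± 0.10), Grin2c (1.41 ± 0.09), Grik1 (1.26 ± 0.10) and Grik4 (1.23 ± 0.08) rose as well. The calls of Grin2c (0.94), Grik1 (0.81) and Grik4 (0.77) were lost under quantile normalization.

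The subunits that fell included Grm2 (-1.37 ± 0.10, adjusted p = 3.94e-17) and Gabra2 (-1.03 ± 0.18, adjusted p = 1.5e-06). Grm2 was 6.67, 9.24, 9.99 and 5.37 TPM at E16.5 and 1.27, 1.15 and 1.39 TPM at E17.5. These stages did not overlap. The Gabra2 call was lost without any 1 of 5 libraries, at -0.909 to -0.996 (E14.5 replicate 2, E15.5 replicate 2, E17.5 replicates 2 and 3, and PN replicate 2). With E15.5 left out of the mid stages, 1 subunit was called lower in place of 3, beside 315 of 15508 genes in place of 380. No AMPA subunit was called: Gria1 differed by -0.66 ± 0.16 and Gria2 by 0.41 ± 0.18.

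Other markers of NSC libraries moved over the same stages. The summed TPM of 6 markers of oligodendrocyte precursors was on average 9.02 at E14.5, 23.5 at E15.5, 172 at E16.5, 477 at E17.5, 701 at E18.5 and 1621 at PN, and between 0.98 and 19.9 in BP libraries. The summed TPM of 6 astroglia markers was between 83.5 and 258 up to E16.5 (group means), then 1007, 1568 and 3519. Sox10, which defines the oligodendrocyte lineage, was 0.105 to 0.235 TPM at E14.5 and 90.7 to 102 TPM at PN. Neuron markers went down, from 4160 TPM at E16.5 to 1116 at PN. The part of these in the rises and falls was not tested. Of 6 genes of glutamate uptake and synthesis, 3 rose: Slc1a3 by 3.66 ± 0.11 to a mean of 934 TPM, Slc1a2 by 2.87 ± 0.13 and Glul by 1.94 ± 0.05. Slc6a11, a GABA transporter of glia, rose by 4.92 ± 0.12, from 4.04 to 153 TPM. Among 14 auxiliary subunits, Cacng5 (3.21 ± 0.12), Shisa9 (2.65 ± 0.11) and Neto1 (1.46 ± 0.12) rose and Cnih2 fell by 1.07 ± 0.08.

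**Figure D4:**
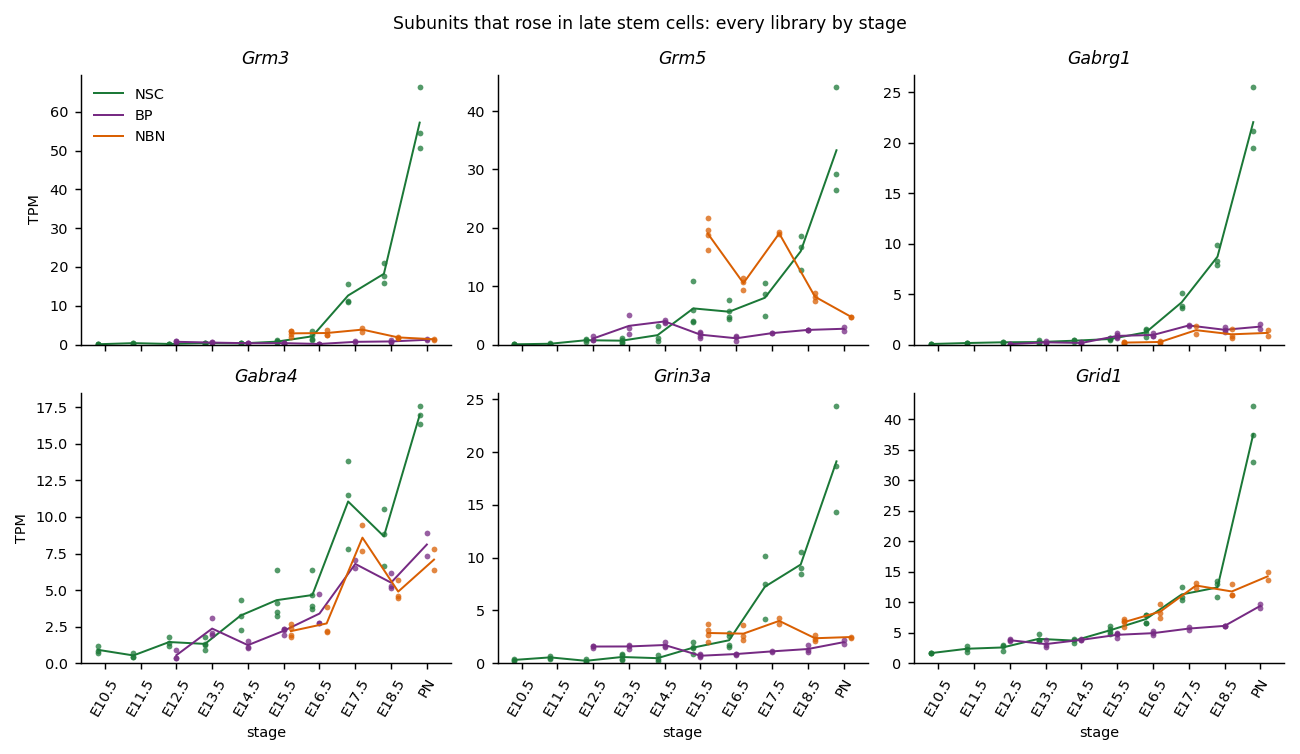
TPM of every library (dots) by stage for Grm3, Grm5, Gabrg1, Gabra4, Grin3a and Grid1, coloured by cell type. NSC dots climb from E16.5 or E17.5 to PN, where Grm3 reaches 50.7 to 66.3 TPM, while BP dots of Grm3 stay at or below 1.34 TPM.

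Whether the late change differed between stem cells and basal progenitors was tested as an interaction, BP late change minus NSC late change. It was called for 17 of 41 subunits, 5 higher, beside 2.86% of all genes tested, and 12 lower, beside 6.85% of all genes. Lower values, where the log2 change in BP was below that in NSC, were led by Grm3 (-3.65 ± 0.15, adjusted p = 2.67e-27). Grm5 (-2.66 ± 0.21), Grin3a (-2.62 ± 0.16) and Gabrg1 (-1.95 ± 0.11) came next. Higher values, where the change in BP was above that in NSC, included Gabra2 (2.28 ± 0.27, adjusted p = 3.43e-10). Gria1 (1.92 ± 0.24, adjusted p = 1.45e-09), Grm2 (1.41 ± 0.16) and Gria2 (1.098 ± 0.268, adjusted p = 5.06e-04) were others. A called value need not be a gain in either cell type. Grm2 fell in NSC (-1.37) and was not called in BP, and Grik3 fell in BP (-1.75) and was not called in NSC. The Gria2 call was lost without NSC E17.5 replicate 2 (0.943) or BP E13.5 replicate 3 (0.973), and that of Grik3 (-1.14 ± 0.38) without NSC E14.5 replicate 1 (-0.935) or BP E13.5 replicate 2 (-0.93).

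In basal progenitors themselves, 5 of 41 subunits rose from the mid to the late stages, beside 3.29% of all genes tested, and 1 fell, beside 1.42% of all genes. The median was 0.26, against 0.12 over all genes. Quantile normalization moved the all-gene median to 0.000162 and the share of higher genes among all calls from 69.9% to 50%, and median ratio scaling moved that share to 56.4%. Gria2 rose by 1.51 ± 0.20 (adjusted p = 5.7e-09), from 52.9, 69.1 and 27.3 TPM at E13.5, 60.3, 54.9 and 62.1 TPM at E14.5, and 132, 107, 93.0 and 104 TPM at E15.5. The late libraries held 303 and 215 TPM at E17.5, 140, 152 and 176 TPM at E18.5, and 199 and 161 TPM at PN, all above the mid-stage ones. Gria1 rose by 1.26 ± 0.18 (adjusted p = 3.07e-08), to 44.1 and 45.4 TPM at PN. Gabra2 (1.25 ± 0.20), Gabra4 (1.42 ± 0.12) and Grik4 (1.37 ± 0.09) were the others. Grik3 fell by 1.75 ± 0.28 (adjusted p = 5.43e-07), from the high libraries of E14.5 given above. With mid stages taken as E12.5 to E16.5, the Grik3 difference was -0.88 (adjusted p = 0.00315 in limma), short of the size limit. No subunit was then called lower, beside 182 of 15508 genes. Markers of other cells also moved between these BP libraries. Of 6 astroglia markers 3 were higher, with sums of 24.1 to 56.1 TPM at the mid and 46.0 to 209 TPM at the late stages, and Gfap was at 0 in 6 of 10 mid-stage libraries. Of 6 oligodendrocyte precursor markers 2 were higher, with sums of 0.98 to 1.86 and 3.91 to 19.9 TPM, and Sox10 was at most 0.759 TPM. Of 8 ventral and interneuron markers 2 were higher (sums of 16.48 to 30.7 and 20.04 to 78.4 TPM), as were 2 of 6 endothelial and pericyte markers. Their part in the rises was not tested.

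Newborn neurons of E17.5 to PN were compared with those of E15.5 and E16.5. Of 41 subunits, 4 were higher, beside 1.27% of all genes tested, and 1 was lower, beside 1.06% of all genes. Grik3 fell by 3.202 ± 0.306 (adjusted p = 1.84e-12), over the values listed for NBN above. Grik4, an auxiliary-type kainate subunit like Grik5, rose by 1.70 ± 0.10 (adjusted p = 3.25e-20), from 1.02, 1.27, 0.982 and 0.820 TPM at E15.5 to 11.04 and 11.8 TPM at PN. The early and late libraries of neither gene overlapped. Gabra2 rose by 1.59 ± 0.22 (adjusted p = 4.45e-08), from 10.6, 10.9, 15.3 and 10.996 TPM at E15.5 to 42.7 and 85.2 TPM at PN. Gabra4 (1.18 ± 0.13) and Gabra5 (1.15 ± 0.13) rose less. Grik2 (0.99 ± 0.11) missed the size limit. Of auxiliary subunits, 1 of 14 rose (Cacng2, by 1.01 ± 0.17) and 3 fell (Shisa9, Gsg1l and Cnih3, by 1.33, 1.19 and 1.11). Microglia markers were higher in the late libraries as well, 3 of 6, with sums of 4.36 to 27.4 TPM early and 21.9 to 62.8 TPM late. So were 3 of 6 astroglia markers (26.1 to 64.7 and 63.9 to 215 TPM) and 2 of 6 oligodendrocyte precursor markers (1.30 to 5.78 and 20.5 to 39.4 TPM, with Sox10 at most 1.17 TPM). The part of these in the rises was not tested.

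Subunit makeup was read as each gene's share of the summed TPM of its class. These shares are descriptions of RNA and not of assembled receptors. Gabrg1 held 4.09% ± 2.00 (SD, n = 4) of gamma subunit RNA in NSC at E16.5, 30.6% ± 9.2 (n = 3) at E17.5, 56.1% ± 3.8 at E18.5 and 66.3% ± 4.0 at PN. In BP groups it held at most 4.42% and in NBN groups at most 1.67%. Every NSC library of the last 3 stages, at 20.8% or more, was above every BP and NBN library.

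Alpha subunits changed in each cell type. Gabra3 held 77.0% ± 1.9 of alpha subunit RNA in NSC at E10.5 and 66.3% ± 6.6 in BP at E12.5. Gabra2 held 73.8% ± 6.7 in NSC at E16.5 (n = 4) and 13.9% ± 3.0 at PN, when Gabra4, an alpha subunit of extrasynaptic receptors, held 47.3% ± 3.5. In NBN, Gabra3 went from 40.8% ± 1.9 at E15.5 (n = 4) to 7.04% ± 2.18 at PN (n = 2), while Gabra2 went from 25.4% ± 3.7 to 61.8% ± 12.2. Gabra5 kept between 15.8% and 26.1% in NBN groups. Among metabotropic receptors, Grm3 held 58.2% ± 2.3 in NSC at PN and Grm5 held 47.4% in NBN at E15.5. Of GluN2 RNA, Grin2b held between 87.6% and 95.4% in NBN groups, whereas Grin2c, a GluN2 subunit known from glia and cerebellum, held 44.6% ± 1.6 in NSC at E17.5.

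**Figure D5:**
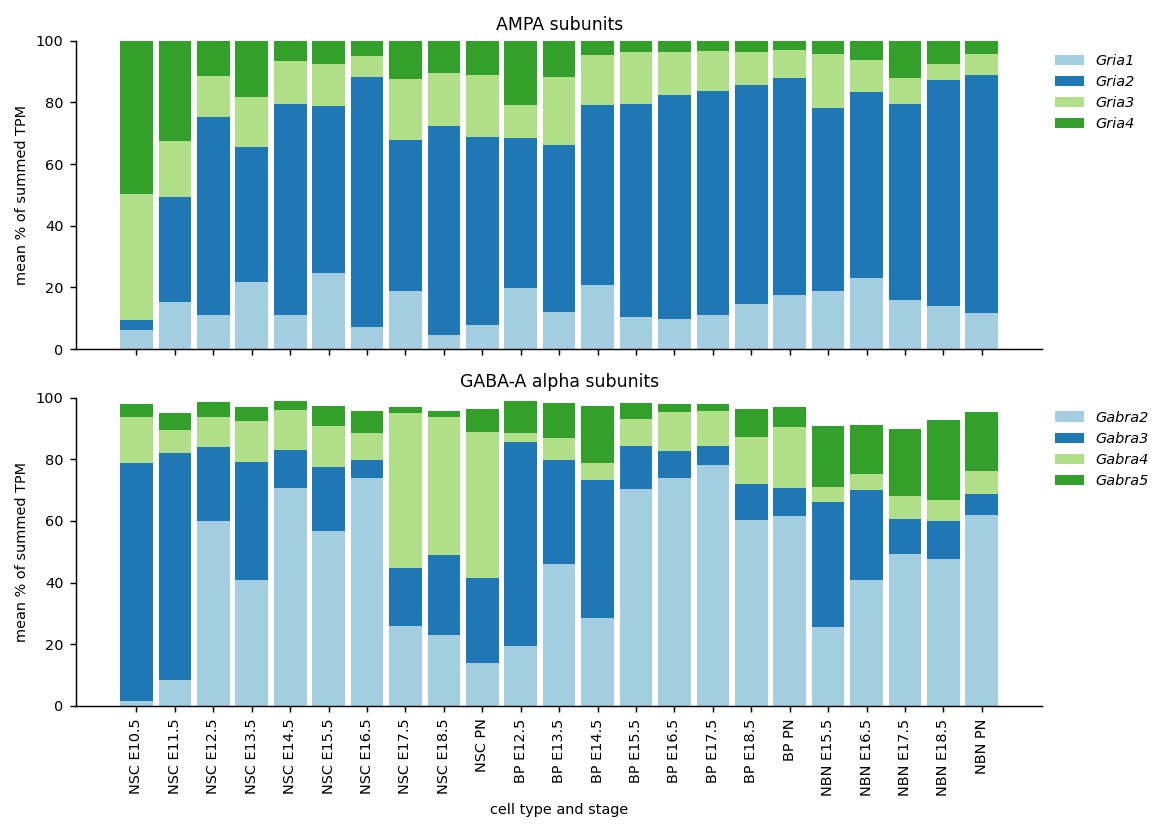
Stacked bars of the mean percent of summed TPM held by each AMPA subunit (upper panel) and by Gabra2 to Gabra5 among GABA-A alpha subunits (lower panel, 4 subunits drawn) in the 23 groups, ordered by cell type and stage. Gria2 goes from 3.42% at E10.5 to 81.0% at E16.5 in NSC, and Gabra4 takes up 44.5% to 50.1% of the last 3 NSC alpha bars.

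Most GABA-A genes lie in clusters. On chromosome 5, in GRCm38 coordinates, Gabrg1 (chr5:70751047-70842617) and Gabra2 (chr5:70957597-71095849), both on the minus strand, are followed by Gabra4 (chr5:71569749-71658308, minus) and Gabrb1 (chr5:71658113-72149037, plus), which start head to head and share 46 exon bases on opposite strands. Gabrg1, Gabra4 and Gabrb1 rose in late NSC while Gabra2, which lies between Gabrg1 and Gabra4, fell. The Gabra2 fall of -1.03 lost its call without any 1 of 5 libraries, as given above. In the 3 other stage comparisons within a cell type Gabra2 and Gabra4 rose together, while Gabrg1 and Gabrb1 were not called. The rises were 3.18 and 1.11 in NSC mid against early, 1.25 and 1.42 in late BP, and 1.59 and 1.18 in late NBN. The Gabra4 call in NSC mid against early was lost under both other scalings, as given above. Over the 23 group means of log2(TPM + 1), Pearson's r was 0.901 between Gabra4 and Gabrb1, 0.863 between Gabrg1 and Gabrb1 and 0.84 between Gabrg1 and Gabra4, but for Gabra2 it was 0.061 with Gabrg1, 0.34 with Gabrb1 and 0.501 with Gabra4. These are descriptions over groups that share libraries, with no test.

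The RefSeq promoter windows of the chromosome 5 genes (GRCm38.p6) are shown because neighbours in 1 cluster moved in opposite directions in late NSC. Capitals mark each CG pair, the letters at which DNA can be methylated; methylation was not measured here. The median window of all 32851 held 7 CG pairs and the median of the members' windows held 12. Gabrg1 (chr5:70842568-70842867, minus) held 3, and 76.7% of all windows hold at least as many. Gabra2 (chr5:71095800-71096099, minus) held 25 (18.4%), Gabra4 (chr5:71658259-71658558, minus) held 12 (39.6%) and Gabrb1 (chr5:71657671-71657970, plus) held 25 (18.4%). A window at another RefSeq start of Gabrb1 (chr5:71699682-71699981, plus) held 9 (45.8%) and is not printed.
Gabrg1: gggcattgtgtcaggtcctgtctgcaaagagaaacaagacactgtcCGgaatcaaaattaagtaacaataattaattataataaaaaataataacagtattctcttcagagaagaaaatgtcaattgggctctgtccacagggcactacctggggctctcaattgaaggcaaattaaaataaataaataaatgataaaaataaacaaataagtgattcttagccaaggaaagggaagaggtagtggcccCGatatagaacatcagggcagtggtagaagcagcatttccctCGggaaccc
Gabra2: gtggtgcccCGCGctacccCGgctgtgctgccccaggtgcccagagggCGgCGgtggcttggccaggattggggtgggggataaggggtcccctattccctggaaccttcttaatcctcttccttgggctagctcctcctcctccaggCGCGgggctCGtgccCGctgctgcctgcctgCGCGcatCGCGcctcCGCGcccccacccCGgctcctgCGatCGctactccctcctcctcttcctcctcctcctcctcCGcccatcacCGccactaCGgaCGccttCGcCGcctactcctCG
Gabra4: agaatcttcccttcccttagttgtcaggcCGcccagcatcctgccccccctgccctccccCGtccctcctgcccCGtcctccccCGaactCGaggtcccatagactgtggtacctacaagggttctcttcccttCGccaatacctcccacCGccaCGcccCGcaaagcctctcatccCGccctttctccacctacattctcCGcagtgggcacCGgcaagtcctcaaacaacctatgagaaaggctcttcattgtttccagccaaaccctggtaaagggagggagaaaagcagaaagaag
Gabrb1: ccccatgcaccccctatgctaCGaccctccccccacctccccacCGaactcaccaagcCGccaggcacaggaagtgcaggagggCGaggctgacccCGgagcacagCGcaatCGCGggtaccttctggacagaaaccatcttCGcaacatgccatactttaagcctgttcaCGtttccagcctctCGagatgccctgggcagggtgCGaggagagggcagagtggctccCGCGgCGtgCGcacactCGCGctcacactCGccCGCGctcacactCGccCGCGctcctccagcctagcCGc
Gabrg1, which rose in late NSC, had the fewest CG pairs of the 4. Gabra2, which fell there, had as many as the first window of Gabrb1 and more than the second. The order of Gabra2 and Gabrb1 thus depends on the start used. A link between CG pairs and these changes was not tested.

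Some levels are uncertain because the library kit does not mark strand. By exon overlap in the annotation, 32.1% of the exon bases of Grin3b are shared with Tmem259 on the opposite strand, and Grin3b is not described further for that reason. The shares were 9.66% for Grin2d, 9.6% for Grm2 and 4.98% for Gabra5. At the low end, Gabrr3 was listed at 0 in 65 of 70 libraries, Gabrp in 58 and Gabra6, a subunit of cerebellar granule cells, in 55. The tables give no read counts, so the depth behind a value of 0 is unknown and no detection limit can be given.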

How the data were processed

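Total RNA of sorted cells was extracted with TRIzol and sequenced as short single reads after TruSeq RNA v2 preparation, which does not mark strand, per the labels' protocols. The authors deposited 1 table of TPM for 23078 genes in 70 libraries; kallisto 0.43.0 and the builds GRCm38.p2 and mm10 are named in the submitters' processing notes. TPM hold no read depth, so the depth per library and its counting error are unknown, and precision rests on the spread of 2 to 4 libraries a group. Libraries held 16098 to 21210 genes above 0.

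A gene was tested if any of the 23 group means reached 1 TPM (15508 genes). Values of log2(TPM + 1) were modelled by 1 coefficient for each of those groups in limma 3.58.1 in R 4.3.3 (47 residual degrees of freedom, variance trend), stages were weighted equally within each comparison, and p-values were adjusted by Benjamini-Hochberg over all 15508 genes. The script was tested on simulated data. Other genes named are called genes of the companion lists, up to 4 a direction with at least 5 TPM on 1 side. Single results of some members are not reported here, though counts and medians over the family include them. The members and lists were chosen with earlier results of these data known. Promoters are those of RefSeq (GRCm38.p6) and gene positions those of a GRCm38 annotation. Alternatives covered the pseudocount, the filter, scaling, variance model, stage windows, and each library left out.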

Additional observations from a re-analysis of the deposited data

Results flagged for a closer look

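Each of 25 subunits with at least 5 TPM was examined in the 5 groups of 4 libraries for a library apart from the other 3, and 8 such libraries were found; chance gives about 1 in 20. In NSC these were Grid1 at E13.5 (replicate 4 at 4.83 TPM, others 3.64 to 3.76), Gabra5 at E15.5 (replicate 1 at 3.88, others 1.24 to 1.65), Grik1 at E16.5 (replicate 4 at 3.88, others 1.48 to 1.86) and Grik2 at E16.5 (replicate 3 at 40.7, others 34.0 to 34.5). In BP at E15.5 they were Gria1 (replicate 3 at 18.0, others 15.6 to 15.96), Gria4 (replicate 1 at 4.96, others 6.15 to 6.26) and Grm2 (replicate 4 at 4.37, others 5.64 to 5.88). In NBN at E15.5 it was Gabra2 (replicate 3 at 15.3, others 10.6 to 10.996).

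The late change differed between BP and NSC by the interaction test in limma for 14 subunits given here. As a signed log2 change it was higher in BP than in NSC for Gabra2 (2.28), Gria1 (1.92), Grm2 (1.41) and Gria2 (1.1). It was lower in BP than in NSC for Grm3 (-3.65), Grm5 (-2.66), Grin3a (-2.62), Gabrg1 (-1.95), Gabrb1 (-1.38), Grik1 (-1.26), Gabra3 (-1.18), Grik3 (-1.14), Grid1 (-1.09) and Grin2c (-1.08). The calls of Gabra3 (-0.989), Grik3 (-0.996) and Grin2c (-0.779) were lost under quantile normalization.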

How the results depend on the processing

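Of 80 called results for single subunits, 37 kept their direction and call under every alternative run. Most alternatives left out a single library, as did 50 of the 63 run for Grik3 in BP against NSC. Those with another filter, without the variance trend or with only the libraries compared cannot move a log2 difference. The totals that follow were thus partly fixed in advance and do not measure robustness. Over 3060 alternatives in all, 2976 kept direction and call, 81 fell below the threshold and 3 reversed. The 3 came from NBN against NSC at E15.5 and E16.5 alone: Gabra2 (-0.788), Grm3 (0.7715) and Gria2 (-0.1236). The cause was not tested.

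Counts of called subunits moved with the pseudocount. With a pseudocount of 5, counts went from 3 to 1 higher and from 3 to 1 lower in BP against NSC. They went from 13 to 8 higher in NBN against BP and from 5 to 1 lower in NBN against NSC. They went from 16 to 8 higher in NSC mid against early. In NSC late against mid they went from 11 to 6 higher and 3 to 0 lower. They went from 5 to 3 higher in BP late against mid and from 4 to 1 higher in NBN late against early. In the interaction they went from 12 to 4 lower. In the same order, all-gene calls went from 290 to 139, 965 to 495, 676 to 342, 1952 to 1177 and 2128 to 1224. They then went from 1444 to 703, 380 to 215, 510 to 180, 197 to 53 and 1062 to 556. With a pseudocount of 0.1, subunit counts went from 3 to 7 lower in BP against NSC. They went from 16 to 25 higher in NSC mid against early. In BP late against mid they went from 5 to 9 higher and 1 to 3 lower. In NBN late against early they went from 4 to 8 higher and 1 to 2 lower. All-gene calls went, in the same order, from 965 to 1553, 2128 to 2897 and 510 to 1158. They then went from 220 to 376, 197 to 654 and 164 to 239.

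Stage windows moved counts too. BP against NSC gave 0 higher and 1 lower at E12.5 to E16.5, beside 66 and 526 of 15508 genes. At E17.5 to PN it gave 8 higher and 10 lower, beside 911 and 1954 genes. Without E15.5 and E16.5 it gave 10 higher, beside 611 genes. At E15.5 and E16.5, NBN against BP gave 1 lower, beside 870 genes, and NBN against NSC gave 2 lower, beside 1159 genes. Without E15.5 in the mid window, chosen after seeing the data, NSC late against mid gave 1 lower, beside 315 genes. The interaction then gave 3 higher, beside 445 genes. With mid taken as E12.5 to E16.5, BP late against mid gave 0 lower, beside 182 genes. Quantile normalization left 3 lower in NBN against NSC, beside 1503 genes.

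Leaving out each library in turn gave 2 to 3 higher and 3 to 3 lower in BP against NSC, 12 to 14 and 0 to 0 in NBN against BP, 12 to 14 and 5 to 5 in NBN against NSC, 16 to 16 and 0 to 0 in NSC mid against early, 11 to 11 and 2 to 3 in NSC late against mid, 5 to 6 and 1 to 1 in BP late against mid, 4 to 5 and 1 to 1 in NBN late against early, and 4 to 5 and 11 to 12 in the interaction. Replicate numbers were not taken to pair the libraries, since the labels name no pairing. Deviations of same-numbered libraries correlated above 0.1 in 8 of 14 BP and NBN pairs (median r 0.124). With different numbers this was so in 6 of 28 (median -0.0326). It was so in 9 of 23 NSC and BP pairs (15 of 56 with different numbers) and in 1 of 14 NSC and NBN pairs (10 of 35). Whether BP and NBN libraries of the same number came from the same animals is not known. A replicate block within stage took the higher count of BP against NSC from 3 to 2 (Gria1 at 0.985), and that over all genes from 290 to 262. It moved no other count of called subunits. Groups of 2 libraries and an unknown depth limit what small differences can show.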
